A study of Homo sapiens with 2 samples.

Results

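The cell cycle and DNA replication genes described here are 60 protein-coding genes chosen by name, of 20037 protein-coding genes on chromosomes 1 to 22, X and Y. They fall into 4 roles: 18 cyclins, cyclin-dependent kinases (CDKs) and their regulators, 20 genes of origin licensing and the replicative helicase, 10 genes of DNA polymerases, the sliding clamp and nucleotide supply, and 12 mitotic genes. The study sequenced RNA that came down with HNRNPC (RNA immunoprecipitation, RIP-seq) in A549, a human cell line derived from a lung carcinoma, with no genetic change or treatment named in the labels. For the immunoprecipitate (IP) 5 µg of antibody against HNRNPC was used, and 1 further library was made from the input with none. The values are the peaks of the IP library, and a gene had a peak when a peak summit lay in its RefSeq span on human genome build 38.

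HNRNPC is a nuclear RNA-binding protein that packages newly made transcripts and is known to bind runs of U. Passage through the cell cycle depends on CDKs switched on by cyclins. Before S phase the origin recognition complex, CDC6 and CDT1 load the MCM helicase onto DNA, and the helicase is then activated by CDC7, CDC45 and the GINS complex. Many of these genes are activated by E2F transcription factors, the family of the study's gene of interest, E2F2, while many mitotic genes are activated later through a promoter element called the cell cycle homology region (CHR).

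The list held 23148 peaks, 23111 of them on the chromosomes used, with a median fold enrichment of 5.76 and a median width of 125 bp. Since each group is 1 library, the values have no replicates, and no test between samples is given. The list gives no read totals. The fold was taken to have a form in which 1 is added to both the scaled IP pileup (0.535 per fragment) and the background before the ratio is taken. Under this form, with the background left free for each peak, exactly 1 whole number of IP fragments met the deposited fold and p in 99.4% of the peaks. The other peaks had no such number or several. Where the background is below 1, this added 1 is the larger part of the denominator, so the fold there mostly follows the IP fragments. At a background of 0.103, POLA1 had a fold of 4.30 from 7 fragments and CDK6 one of 17.4 from 34. The number of IP fragments over a summit and the background level there were inferred from each peak's fold and p through this form. The inferred IP depth at a summit was 6 to 93 fragments with a median of 15, and 69.4% of these peaks had less than 1 control fragment over the summit. Of 12 markers of epithelium and lung carcinoma lines CDH1 and ALDH1A1 had a peak, and PTPRC, CD3E, COL1A1 and PECAM1 had none. A peak list does not measure expression, so the cell type was not checked further.

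Peaks were found near the start of many of these genes, and promoter stretches of 8 members are shown with the motifs found in them. Each stretch runs from 200 bases before the annotated start through the first 30 transcribed bases (RefSeq, GRCh38 patch 14, on the strand of the gene). Capitals in the first set mark an E2F site, TTTCCCGC, TTTCGCGC, TTTGCCGC or TTTGGCGC on either strand, overlapping matches joined. GINS1, MCM6 and CDC6 had a peak at the start. MCM3 had E2F sites and no peak.
GINS1: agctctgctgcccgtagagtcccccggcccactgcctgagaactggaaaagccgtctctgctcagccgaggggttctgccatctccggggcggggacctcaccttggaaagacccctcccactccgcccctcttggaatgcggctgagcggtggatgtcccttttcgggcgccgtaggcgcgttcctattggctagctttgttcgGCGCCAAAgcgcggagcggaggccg
MCM6: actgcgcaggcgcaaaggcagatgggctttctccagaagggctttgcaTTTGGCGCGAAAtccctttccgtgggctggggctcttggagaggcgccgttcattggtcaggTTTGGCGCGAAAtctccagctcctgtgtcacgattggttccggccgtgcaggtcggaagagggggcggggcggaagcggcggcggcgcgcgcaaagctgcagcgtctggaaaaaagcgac
CDC6: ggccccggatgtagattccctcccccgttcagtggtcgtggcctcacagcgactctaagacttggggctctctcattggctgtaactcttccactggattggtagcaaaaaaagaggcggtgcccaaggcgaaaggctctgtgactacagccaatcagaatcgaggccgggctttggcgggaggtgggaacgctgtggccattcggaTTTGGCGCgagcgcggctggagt
MCM3: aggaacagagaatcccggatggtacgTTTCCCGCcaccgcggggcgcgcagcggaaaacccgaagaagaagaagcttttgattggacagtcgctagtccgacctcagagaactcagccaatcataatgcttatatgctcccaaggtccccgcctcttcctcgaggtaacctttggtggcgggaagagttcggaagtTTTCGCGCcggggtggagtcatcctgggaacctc

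These stretches lie at chr20:25407473-25407702 (plus strand) for GINS1, chr2:135876414-135876643 (minus) for MCM6, chr17:40287679-40287908 (plus) for CDC6 and chr6:52284713-52284942 (minus) for MCM3. The peak of GINS1 began at base 24 of the transcript, that of MCM6 at base 25 and that of CDC6 at base 19. Within the printed bases the peaks covered the last 7, 6 and 12 respectively. The E2F site began at transcript base 6 in GINS1 and at base 8 in CDC6, upstream of the first base under the peak.

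Capitals in the second set mark a CHR element, TTTGAA or TTCGAA on either strand. TOP2A, BUB1 and MKI67 had a peak at the start, and PLK1 had a CHR element and no peak.
TOP2A: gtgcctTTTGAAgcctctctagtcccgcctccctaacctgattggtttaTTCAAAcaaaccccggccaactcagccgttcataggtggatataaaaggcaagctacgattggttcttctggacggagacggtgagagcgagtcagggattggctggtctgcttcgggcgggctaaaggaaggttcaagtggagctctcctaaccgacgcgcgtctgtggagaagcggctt
BUB1: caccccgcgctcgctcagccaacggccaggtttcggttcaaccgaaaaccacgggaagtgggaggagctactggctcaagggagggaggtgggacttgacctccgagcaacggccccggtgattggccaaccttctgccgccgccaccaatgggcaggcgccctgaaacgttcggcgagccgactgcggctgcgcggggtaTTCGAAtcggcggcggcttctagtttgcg
MKI67: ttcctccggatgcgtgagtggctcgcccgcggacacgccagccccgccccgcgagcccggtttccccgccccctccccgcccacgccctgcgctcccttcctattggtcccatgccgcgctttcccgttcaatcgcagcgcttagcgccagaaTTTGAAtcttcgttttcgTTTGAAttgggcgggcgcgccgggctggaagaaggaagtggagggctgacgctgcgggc
PLK1: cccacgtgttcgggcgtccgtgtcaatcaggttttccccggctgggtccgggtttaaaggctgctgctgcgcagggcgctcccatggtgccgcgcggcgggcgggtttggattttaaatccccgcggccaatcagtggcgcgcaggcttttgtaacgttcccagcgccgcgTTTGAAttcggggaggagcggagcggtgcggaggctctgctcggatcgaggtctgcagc

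They lie at chr17:40417867-40418096 (minus strand) for TOP2A, chr2:110678034-110678263 (minus) for BUB1, chr10:128126394-128126623 (minus) for MKI67 and chr16:23678689-23678918 (plus) for PLK1. The MKI67 peak lay further into the gene, beyond the printed bases, of which it covered 0. The TOP2A peak reached from 4 bases before the start and covered the last 34 printed bases. In TOP2A the elements began 194 and 151 bases before the start, and in MKI67 they began 47 and 29 bases before it. The BUB1 element began at transcript base 2 and the BUB1 peak at base 19.

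Of the 60 genes, 28 had a peak (46.7%), where 18.4% of all protein-coding genes had one. Together they held 124 peaks. The median of the members' best folds was 6.73, against 7.04 over all 3685 protein-coding genes with a peak. Of the 28, 6 had a best fold of 10 or more (21.4%, beside 20.5% of all genes with a peak). The members' share with a peak was thus above that of all genes, while their folds were close to those of other genes with a peak. Members were chosen with earlier results of these data known, so the higher share is described and not tested. Expression was not measured, so a gene without a peak may have been bound or not transcribed.

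The number of peaks was uneven among the members. TOP2A, ANAPC1 and CDC27 had 10 or more each, and these 3 held 44 of the 124 peaks (35.5%). In all, 11 members had 5 or more peaks and held 76.6%, 7 had 2 to 4, and 10 had 1. Over all 20037 protein-coding genes, those without a peak included, 8.38% had 5 or more peaks and 3.9% had 10 or more. Of the 3685 protein-coding genes with a peak, 1680 had 5 or more and 782 had 10 or more. The median number of peaks was 2.5 in members with a peak and 4 in all protein-coding genes with one.

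**Figure D1:**
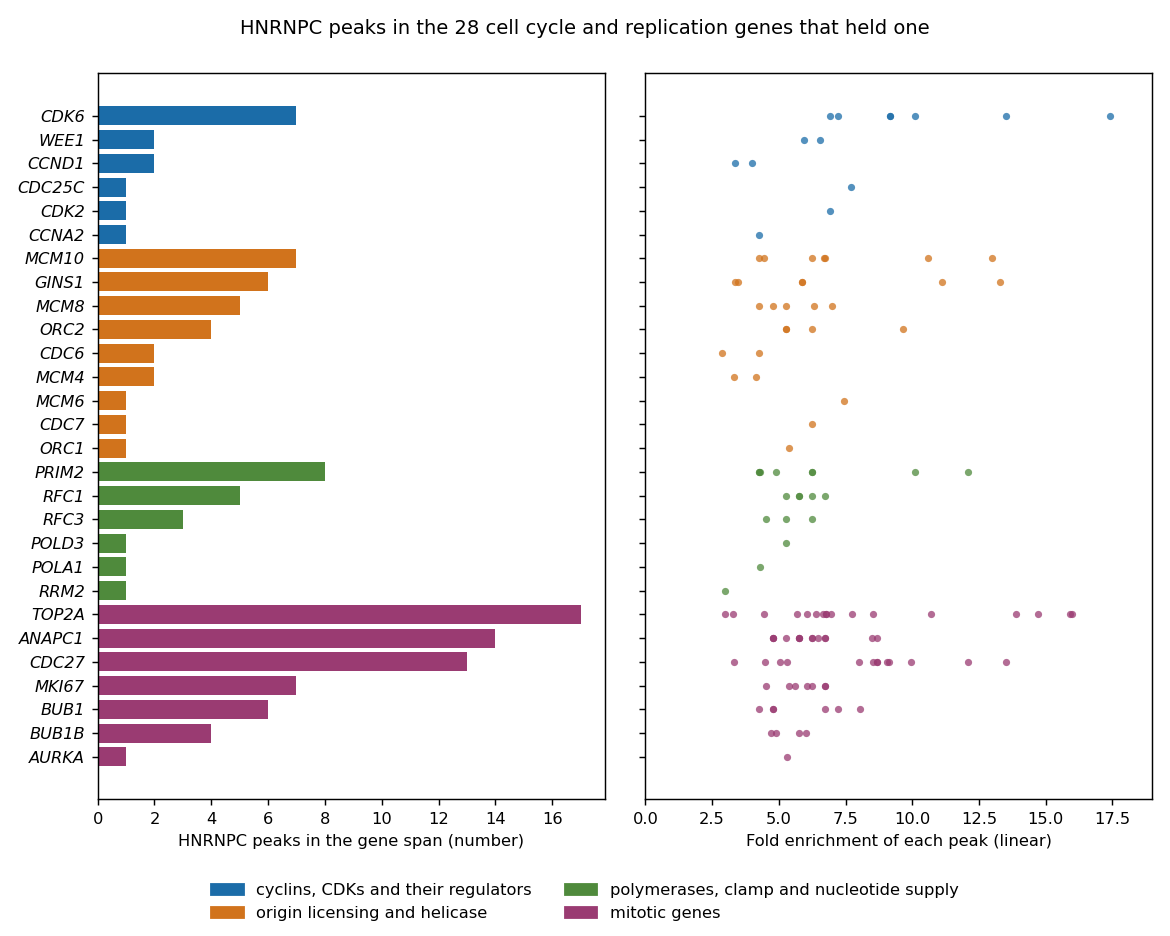
Left, number of HNRNPC peaks in the span of each of the 28 members that had one, coloured by role; right, linear fold enrichment of each of these peaks, one point per peak. TOP2A has the most peaks (17), and the highest point is that of CDK6 at a fold of 17.4.

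Members with a peak had longer spans than those without, with medians of 44.6 and 16.5 kb. Over all protein-coding genes these medians were 64.9 and 18.2 kb. Among the cyclins, CDKs and their regulators the order was the opposite, with 14.8 and 16.5 kb. The 32 members without a peak included 20 of the 26 members under 20 kb. Under 20 kb 6 of 26 members had a peak (23.1%), beside 5.05% of all protein-coding genes of that span. From 20 to 50 kb it was 10 of 17 (58.8%, beside 21.3%), from 50 to 100 kb 7 of 11 (63.6%, beside 34.7%), and over 100 kb 5 of 6 (83.3%, beside 36%). In every class the members' share lay above that of all genes, with few members in each. Shares of genes carry no test here.

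**Figure D2:**
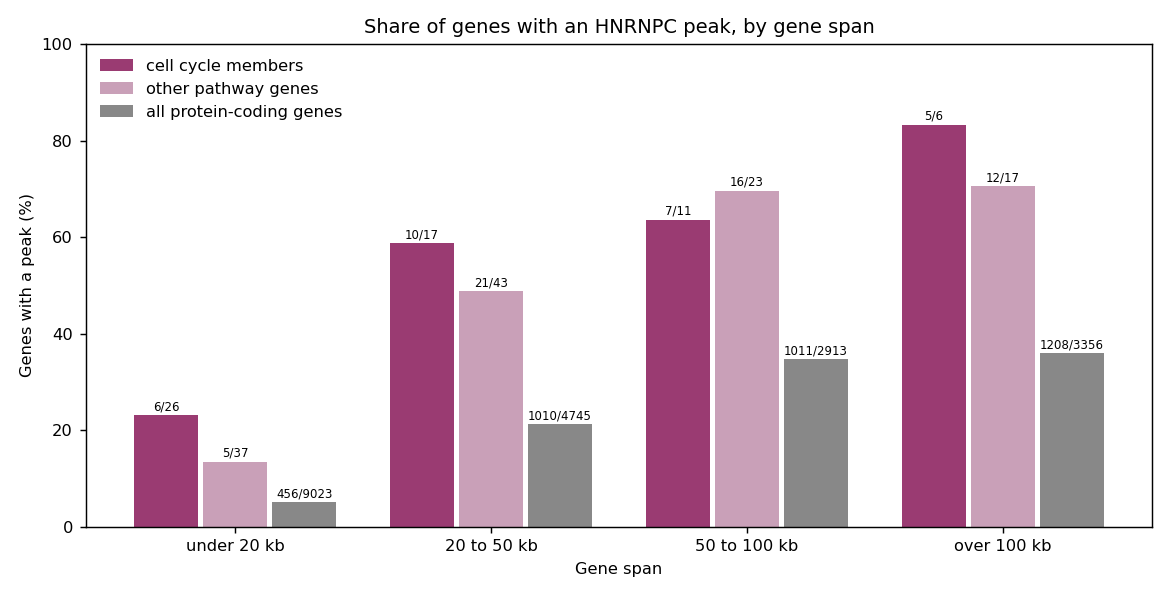
Percentage of genes with an HNRNPC peak (vertical axis) in 4 classes of gene span. Bars show the 60 members, 120 other genes of the same pathways or gene families and all protein-coding genes. Numbers above the bars are genes with a peak over genes in the class. Members lie above all protein-coding genes in each class, from 23.1% beside 5.05% under 20 kb to 83.3% beside 36% over 100 kb.

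Among the cyclins, CDKs and their regulators 6 of 18 had a peak (33.3%), with 14 peaks in all. CDK6, a kinase that drives G1 with the D cyclins, held 7 of these. Its strongest peak had a fold of 17.4 from 34 IP fragments (95% Poisson interval 23.5 to 47.5, counting error only) and ranked 80 of all peaks by fold. That peak was 8590 bp wide, at chr7:92606712-92615301, and its summit lay 95.7% of the way from the 5′ to the 3′ end of the span. A second peak at 94.3% of the span had a fold of 13.5. The other 5 CDK6 peaks had folds of 6.93 to 10.1. CDK4, the close relative of CDK6, had no peak in its span of 4.58 kb, which compares with 232 kb for CDK6.

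The other kinases and regulators with peaks had lower folds. CDC25C, a phosphatase that activates CDK1, had 1 peak with a fold of 7.70, and CDK2, the partner of cyclins E and A, had 1 with a fold of 6.93. WEE1, the kinase that inhibits CDK1, had 2 peaks with folds of 6.56 and 5.94. CCND1, encoding cyclin D1, had 2 peaks with folds of 4.0 and 3.36, from 43 and 42 IP fragments over backgrounds of 5 and 6. CCND1 thus had more fragments at its summits than the highest CDK6 peak and a lower fold. CCNA2, encoding cyclin A2, had 1 peak with a fold of 4.26. No peak lay in CCND2, CCND3, CCNE1, CCNE2, CCNB1, CCNB2, CDK1, the CDK inhibitor genes CDKN1A and CDKN1B, CDC25A or CDC25B.

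Of the origin licensing and helicase genes 9 of 20 had a peak (45.0%), with 29 peaks. The highest folds lay in 2 genes that act when the helicase is activated. GINS1, a subunit of the GINS complex, had 6 peaks with folds of 13.3, 11.1, 5.87, 5.87, 3.47 and 3.35 in descending order. Its strongest peak, at chr20:25407696-25407921, had 30 IP fragments, and the 2 lowest lay near the 3′ end over backgrounds of 5 and 6.81. MCM10, which links the helicase to the polymerases, had 7 peaks, the highest with folds of 13.0 at chr10:13170963-13171289 and 10.6 at the start of the gene. Its other 5 peaks had folds of 4.25 to 6.73.

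The loading factors had fewer peaks. ORC2 had 4 peaks, the strongest at the start with a fold of 9.64, and the others between 5.27 and 6.24. ORC1 had 1 peak with a fold of 5.37, which also lay in the span of the neighbouring gene PRPF38A, and ORC3 and ORC4 had none. CDC6 had 2 peaks with folds of 4.26 and 2.87, the second from 41 IP fragments over a background of 7. CDT1 and its inhibitor GMNN had none. Of the 6 subunits of the MCM2 to MCM7 ring, MCM6 had 1 peak with a fold of 7.45 and MCM4 had 2 with folds of 4.13 and 3.31, and MCM2, MCM3, MCM5 and MCM7 had none. MCM8, a related helicase known from DNA repair, had 5 peaks with folds of 4.25 to 6.98. The kinase gene CDC7 had 1 peak with a fold of 6.24. CDC45, GINS2 and GINS3 had none.

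Of the polymerase, clamp and nucleotide genes 6 of 10 had a peak (60%), with 19 peaks over the longest spans of the 4 roles (median 77.8 kb). PRIM2, the large primase subunit, had 8 peaks, led by folds of 12.1 and 10.1 that lay 2867 and 46 bp into the gene from its nearest annotated start. The other 6 had folds of 4.25 to 6.24, and 1 of these lay in the span of RAB23 as well. RFC1, the large subunit of the clamp loader, had 5 peaks with folds of 5.27 to 6.73, and RFC3, a small subunit, had 3 with folds of 4.52 to 6.24. POLA1 and POLD3, polymerase subunits, had 1 peak each with folds of 4.30 and 5.27, from 7 and 9 IP fragments. RRM2, a subunit of ribonucleotide reductase, had 1 peak with a fold of 2.99 from 37 fragments over a background of 5.97. The clamp gene PCNA, POLE, RRM1 and TYMS had none.

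Of the mitotic genes 7 of 12 had a peak (58.3%), and they held 62 of the 124 peaks of the members. Relative to span they were covered more densely (13.6 peaks per 100 kb over all 12) than the cyclins and CDKs (2.25), the licensing genes (4.16) and the polymerase genes (1.5). Over all protein-coding genes the density was 1.76. TOP2A, ANAPC1 and CDC27 held 44 of the 62 mitotic peaks, and the other 9 mitotic genes together had 7.64 peaks per 100 kb. Among the pathway genes outside the member list the order was another, with 8.33 in licensing genes and 6.4 in mitotic genes.

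TOP2A, the topoisomerase that untangles sister chromatids, had 17 peaks in 29.4 kb. Only 12 of 4745 protein-coding genes of 20 to 50 kb, TOP2A included, had as many (0.253%). At 57.9 peaks per 100 kb it ranked 19 among the 1680 genes with 5 or more peaks. Its strongest peak, at chr17:40417739-40417900, had a fold of 16.0 and ranked 149 of all peaks by fold. A second group of 3 peaks, at 15.8%, 17.2% and 21.0% of the span, had folds of 14.7, 15.9 and 13.9. The folds of the remaining peaks ran from 10.7 down to 2.97. No TOP2A summit lay beyond 61.1% of the span from the 5′ end.

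Folds need the background beside them. The background was itself solved from fold and p, so at a like number of fragments a lower fold and a higher background are 1 measurement and not 2. In TOP2A 9 peaks had 34 to 37 IP fragments, and their folds ran from 2.97 at a background of 6 to 15.9 at a background of 0.207. The 5 TOP2A peaks with less than 1 control fragment had folds of 10.7 to 16.0, and the 12 others had 2.97 to 8.53. Over all members 81 peaks had less than 1 control fragment, with a median fold of 6.31, and 43 had more, with a median of 4.52. Each of the 8 member peaks with a background of 5 or more had a fold of 4.0 or less. The low folds in CCND1, in the second CDC6 peak and in RRM2 are of this kind, with 37 to 43 IP fragments.

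**Figure D3:**
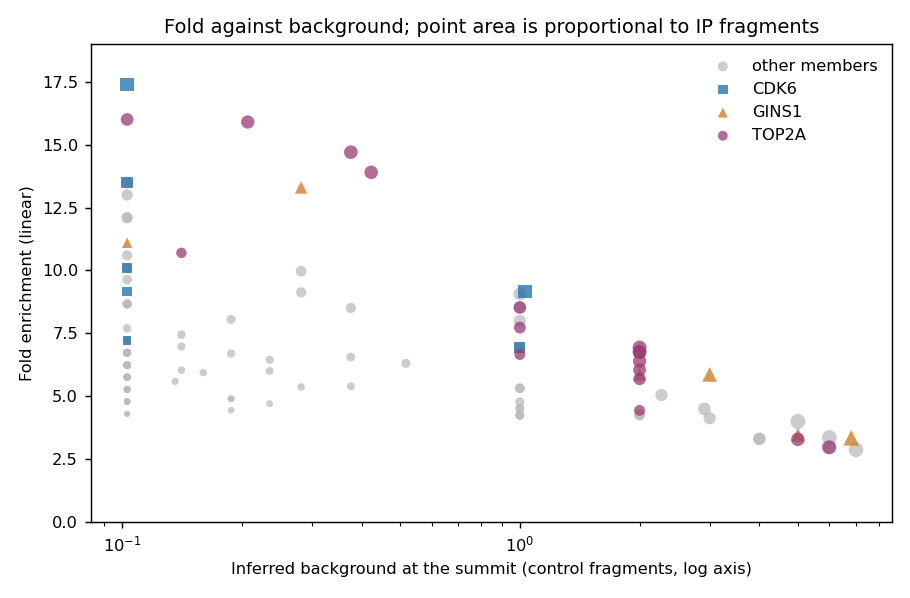
Linear fold enrichment (vertical axis) against the inferred background at the summit in control fragments (horizontal log axis) for the 124 member peaks; point area is proportional to the inferred IP fragments. TOP2A peaks with similar fragments spread from a fold of 15.9 at a background of 0.207 to 2.97 at 6.

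The subunits of the anaphase-promoting complex, which marks cyclins and securin for destruction, differed. CDC27 had 13 peaks with folds of 3.31 to 13.5, and ANAPC1 had 14 with folds of 4.79 to 8.67. ANAPC4 and the activator gene CDC20 had none. All 14 ANAPC1 peaks had less than 1 control fragment, and in CDC27 this held for 6 of 13. Of the 28 members with a peak, 10 have pseudogenes named after them in the reference: CDC27 has 11, ANAPC1 6, RRM2 3, AURKA and WEE1 2 each, and BUB1, MKI67, ORC1, PRIM2 and RFC3 1 each. Reads from such copies cannot be told apart from those of the gene where the sequences match, so the counts of these 10 are uncertain. Without members that have such a pseudogene, 18 of 42 had a peak (42.9%, beside 18.4% of all protein-coding genes). These 18 held 68 peaks, and 11 had one at the start.

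MKI67, which encodes the proliferation marker Ki-67, had 7 peaks with folds of 4.52 to 6.73. The spindle checkpoint kinase gene BUB1 had 6 peaks with folds of 4.25 to 8.05, and BUB1B, its relative, had 4 with folds of 4.71 to 6.01. AURKA, a kinase of the spindle poles, had 1 peak with a fold of 5.32, within 500 bp of the start of CSTF1. PLK1, AURKB and FOXM1, a transcription factor of mitotic genes, had no peak.

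Summits in these genes lay towards the 5′ end. Start and strand were available for 50 members, of which 22 had a peak, and these 22 held 115 summits. With the span divided into 3 equal parts, 64 lay in the 5′-most part (55.7%), in the middle part 37 (32.2%) and in the 3′-most part 14 (12.2%). Over 19183 summits of all protein-coding genes the shares were 28.4%, 30.6% and 41.0%. Of the 22 members 16 had no summit in the 3′-most part (72.7%), beside 42.2% of all genes with a peak. This share also depends on the number of peaks in a gene. Members with a peak, oriented or not, had a median of 2.5 peaks, beside 4 in all protein-coding genes with a peak. Of the 14 summits in the 3′-most part, 4 were those of CDK6, and the others lay in CDC27, PRIM2, GINS1, ORC2 and RFC1.

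The difference in position was also present within classes of gene length. Among genes of 20 to 50 kb, members had 56.9% of 51 summits in the 5′-most part and 3.92% in the 3′-most part, beside 39.9% and 30.7% of 3766 summits in all such genes. Over 100 kb the members' shares were 57.6% and 21.2% of 33 summits, beside 20.2% and 50%. These 33 summits lay in 5 genes, with 14 in ANAPC1, 8 in PRIM2 and 3 in RFC3, whose counts are uncertain because of named pseudogenes. Summits of 1 gene are not independent of each other, and TOP2A, ANAPC1 and CDC27 hold many of them. Transcript structure was not used, so exons and introns are not told apart.

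**Figure D4:**
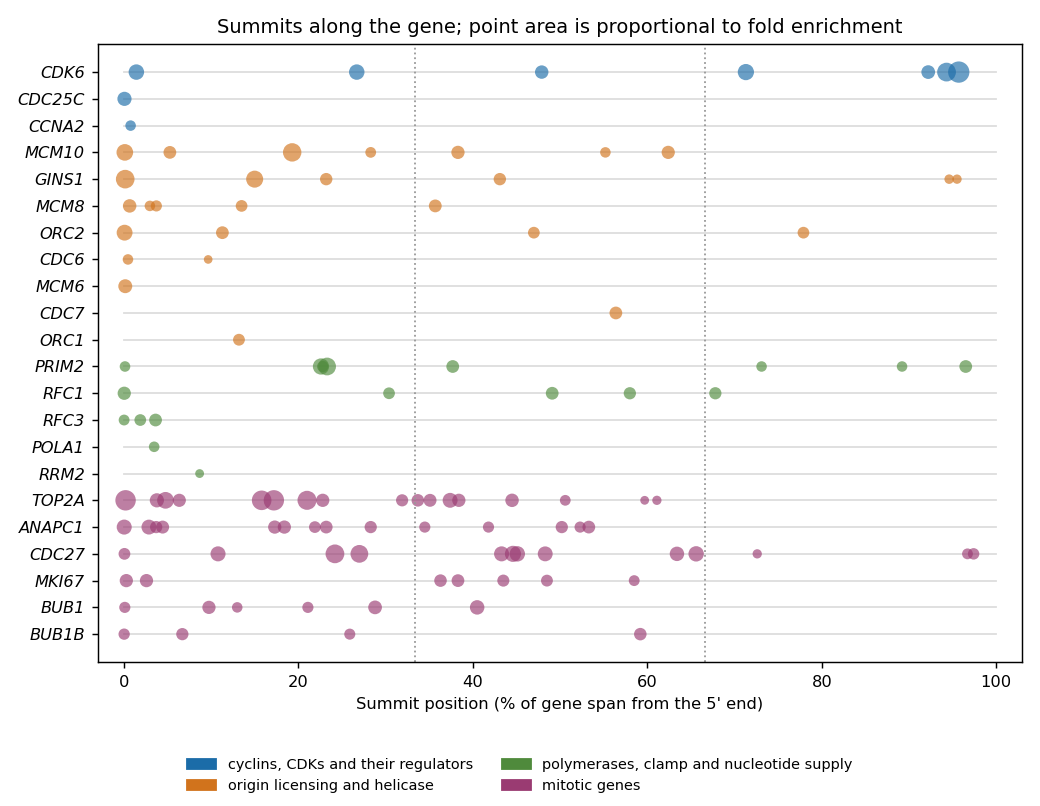
Each row is 1 of the 22 members with a peak and a known strand; points are peak summits placed by their distance from the 5′ end as a percentage of the gene span, with area proportional to fold and colour by role; dotted lines divide the span into 3 equal parts. Most summits lie in the left part, and CDK6 has its 2 highest peaks at the right end, at 94.3% and 95.7%.

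A peak at the annotated start was common among the members. A summit lay within 500 bp of a start in 18 of 50 members (36.0%), beside 10.6% of all 15842 protein-coding genes with a known start. Among genes that had a peak it was 18 of 22 (81.8%), beside 54.7%. By role it was 6 of 6 mitotic genes with a peak, 7 of 8 licensing genes, 3 of 5 polymerase genes and 2 of 3 cyclins and CDKs. The 4 members with a peak and none at the start were CDK6, CDC7, POLA1 and RRM2. The CDK6 peak nearest to a start had its summit 711 bp into the gene.

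These summits lay at a similar distance from the start. In 16 of the 18 the summit was 24 to 86 bp into the gene, among them TOP2A at 60 bp, MCM10 at 58 bp, CCNA2 at 58 bp, ANAPC1 at 56 bp, RFC3 at 56 bp and CDC27 at 53 bp. The exceptions were MCM8 at 324 bp and ORC1 at -236 bp, that is upstream of its start. Only summits inside a gene span were counted. One upstream of a gene's outermost annotated start could thus appear only where the span reaches beyond that start, as in ORC1. That most summits lay on the downstream side is thus largely set by this rule. The median distance was 56 bp (quartiles 46.25 and 61.5) in members. Over the 1826 such peaks of all protein-coding genes it was 73 bp (quartiles 48 and 245), and 49.3% of those lay 20 to 90 bp into the gene.

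Folds at the start were of the same order as elsewhere in the members. Start peaks had folds of 4.26 to 16.0 with a median of 6.86, and the 97 other oriented peaks had a median of 6.24. Over all protein-coding genes the medians were 6.25 and 5.76. The start peak was the strongest of its gene, ties left out, in 11 members, among them TOP2A, GINS1, ORC2 and ANAPC1; in CCNA2, CDC25C, ORC1 and MCM6 it was the only one. The peaks have no strand, and a start of another gene lay within 500 bp of 3 of the 18 summits. These were the starts of FAM53C at CDC25C, PRPF38A at ORC1 and TRMT6 at MCM8, and which of the 2 RNAs gave the peak cannot be told apart.

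**Figure D5:**
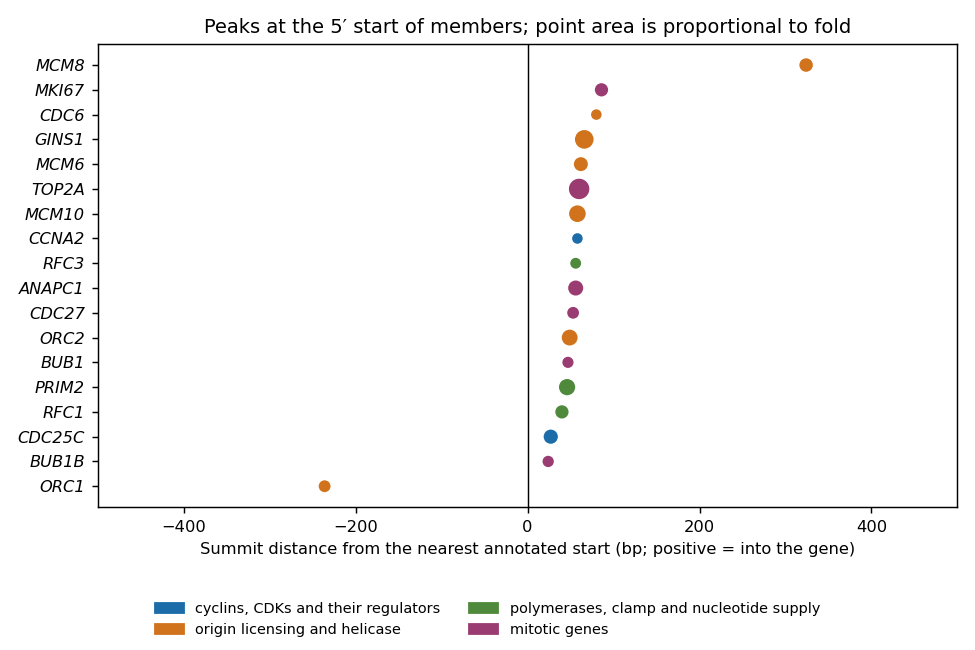
Distance in bp between the peak summit and the nearest annotated start (horizontal axis, positive into the gene) for the 18 members with a summit within 500 bp, one row per gene; area is proportional to fold and colour gives the role. All rows but MCM8 and ORC1 fall between 24 and 86 bp. Summits outside the gene span were not counted.

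Promoter motifs differed by role. In windows from 250 bases before to 50 bases after a start, an E2F site was found in 20 of 50 members (40%), beside 5.4% of all protein-coding genes with such a window. It was in 13 of 18 licensing genes and 5 of 9 polymerase genes. None of the 10 mitotic genes had one, a count that in genes drawn at random would allow a share of up to 30%. Of members with a peak 7 of 22 had an E2F site (31.8%), and of members without a peak 13 of 28 (46.4%). Over all protein-coding genes the order was the opposite, with 7.9% of genes with a peak and 4.79% of those without. With TTTCGCGC and TTTGGCGC alone the members' shares were 22.7% and 25%. A CHR element was found in 7 of 10 mitotic genes and in 13 of 50 members (26.0%), beside 17.5% of all genes. Genes with several starts have several windows and more chances of a match, and a match is not a tested site.

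HNRNPC is known for binding runs of U, so the first 50 transcribed bases were searched for TTTTT on the gene's strand. No member had such a run in 50 genes, and 3.48% of all genes had one. In genes drawn at random such a count would allow a share of up to 6%. The members' start summits lay a median of 56 bp into the gene, beyond these 50 bases, and 28 of the 50 genes had no peak. The search thus does not tell whether runs of U lay under the peaks. The letters under the peaks beyond these bases were not read here.

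The pathway genes outside the member list, taken by pathway or gene family, had peaks in a similar share when pooled, but not in each role. Not each of them need act in the cell cycle, and the list was drawn up with earlier results of these data known. Of 120 such genes 54 had a peak (45.0%, beside 18.4% of all protein-coding genes), with a median best fold of 7.10 and 341 peaks. Among cyclin and CDK genes 17 of 32 had one, with the highest folds in CCNY (14.5), the ubiquitin ligase subunit gene SKP2 (11.7) and CDK12 (11.2), and the most peaks in CCNT1 (10), CDK12 (9) and CDK19 (9). Among licensing and fork genes it was 8 of 16, led by CLSPN, an adaptor of the replication checkpoint, with 22 peaks and a fold of 13.0. TOPBP1 had 15 peaks with a best fold of 8.67, and WDHD1 had 11 with a best fold of 7.70. Among polymerase and nucleotide genes 4 of 21 had a peak, the most in RRM2B with 11 and a best fold of 9.16, TOP1 with 8 and 7.73, and DNA2 with 5 and 9.64. Among mitotic genes it was 25 of 51. ECT2, which directs cytokinesis, had 15 peaks with a best fold of 14.5, TOP2B had 16 with 14, and ANLN had 15 with 13.0. The cohesin subunit gene STAG2 had 22 peaks and the condensin subunit gene SMC2 had 18.

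A start peak was seen in 28.2% of these genes with a known start and in 29 of 46 that also had a peak (63.0%). Of their 306 oriented summits 43.8% lay in the 5′-most part and 22.2% in the 3′-most part. Pooled over all spans, both shares lay between those of the members and those of all protein-coding genes. From 50 to 100 kb they did not, with 54.3% and 3.88% of 129 summits, beside 46.4% and 17.9% of 28 in members. Over 100 kb 59.5% of the 74 summits of the other pathway genes lay in the 3′-most part, beside 21.2% in members and 50% in all genes.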

How the data were processed

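The peak list of the HNRNPC IP library was deposited by the authors in narrowPeak layout. The tools HISAT2, MACS2 and bedtools and the hg38 assembly come from the submitters' processing notes; versions, settings and the control used are not given in the sources used here. Per the deposited file each peak has a score (10 times −log10 q, cut to a whole number), a fold (linear ratio, with 1 added to pileup and background as the values show) and the −log10 of p and q, with q of at most 0.00998. Of the input, no values of its own entered.

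A gene had a peak when a summit lay in its span (RefSeq table of GRCh38 patch 14), also where spans overlap. Symbols of all 60 members and 120 other pathway genes were found. Strand, starts and promoter sequences came from a RefSeq table of promoters. CCND1, CCND2, CCNE2, CDK2, WEE1, MCM4, MCM5, POLD3, AURKA and FOXM1 were not oriented. IP fragments and background were solved from fold and p under a Poisson background (tolerance 0.003 in −log10 p), which gave an IP scaling of 0.535 and a lowest background of 0.103. In 200 simulated peaks over 20037 genes all were assigned to their gene and 98.5% had both values recovered. The simulated summits were placed inside spans, and their fold and p were made by the same form and scaling. This checks the code and not whether the form holds for the deposited peaks. Alternatives were stricter q and fold, other overlap rules, members with a named pseudogene left out (all, or CDC27, ANAPC1 and PRIM2 alone), other distances from the start and fewer E2F motifs. Every member is reported by presence or absence of a peak; those with 5 or more peaks or a fold of 10 or more are given in full, and of the other pathway genes the leading ones by fold and by number in each role. Members and lists were chosen with earlier results of these data known. Intervals are 95% and cover counting error only. Scripts ran under Python 3.11.15 (pandas 2.3.3, numpy 2.4.6, matplotlib 3.10.9 and scipy 1.17.1).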

Additional observations from a re-analysis of the deposited data

How the results depend on the processing

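The number of the 60 members with a peak was 28, beside 18.4% of all protein-coding genes. It was 24 with q of 0.001 or less (CCNA2, CDC6, POLA1 and RRM2 lost theirs), beside 16.7% of all genes. With a fold of 4 or more it was 27, beside 17.7%, and under both other overlap rules 28, beside 18.4%. With only summits in no other protein-coding span it was 26 (CDC25C and ORC1 lost theirs), beside 17.2%. The median best fold moved from 6.73 to 6.95 with q of 0.001 or less. Leaving out CDC27, ANAPC1 and PRIM2, chosen after seeing the data, gave a median of 6.56, 25 members and 89 peaks, and 3 in place of 5 members over 100 kb, 2 of those left out being that long. With TTTCGCGC and TTTGGCGC alone 12 in place of 20 members had an E2F site. Members with a peak at the start, a result added after seeing the data, numbered 18 of 50, beside 10.6% of all protein-coding genes with a known start. They numbered 16 within 200 bp, 19 within 1000 bp and 13 with q of 0.001 or less. The share over all genes was not computed at these other settings. Leaving out all members with a named pseudogene, 10 of them with a peak, was also chosen after seeing the data. It gave 18 members with a peak, 68 peaks and a median best fold of 6.83. With a peak were 3 polymerase and 2 mitotic genes, 6 members of 20 to 50 kb and 2 over 100 kb, and 11 had one at the start. These counts are over fewer genes. The share with a peak was 42.9% of the 42 left, beside 46.7% of all members and 18.4% of all protein-coding genes. Summits had a median of 15 IP fragments, and the effect of depth on the counts was not tested. No paired analysis was possible because there is 1 library per group.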
